A study of Mus musculus with 6 samples.

Results

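The genes described here encode the fibrous sheath and the outer dense fibers, the accessory structures that surround the axoneme of the sperm tail. The 10 genes were chosen by symbol, for the known place of their proteins in the tail: Akap3, Akap4, Fscb, Cabyr, Ropn1, Ropn1l and Spa17 for the fibrous sheath and its bound proteins, and Odf1, Odf2 and Odf3 for the outer dense fibers. All 10 were found among the 24411 genes of the files, and all 10 were among the 17110 genes tested. RNA was sequenced from whole testes of age-matched C57BL/6 mice, a standard inbred strain. The genotype MRP5-/- and MRP9-/-, here labelled DKO, was given for 3 libraries, and the other 3 carry the genotype Wildtype, here labelled WT. The transporters MRP5 and MRP9 belong to the ABCC family and are encoded by Abcc5 and Abcc12. The labels do not state the age, the design of the alleles, or a promoter or Cre line.

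In the mammalian sperm tail, outer dense fibers run along the axonemal doublets, and in the principal piece they are enclosed by the fibrous sheath. The sheath is made of longitudinal columns joined by ribs and holds protein kinase A and glycolytic enzymes close to the axoneme. AKAP4 and AKAP3 are A-kinase anchoring proteins and form much of the sheath. Ropporin (ROPN1), ROPN1L, SPA17 and CABYR share a domain related to the one by which the regulatory subunit of protein kinase A binds such anchors. The genes of both structures are transcribed mainly in spermatids, the haploid germ cells that build the tail.

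Total expected counts ranged from 42673615 to 67131103 in libraries labelled DKO and from 26753721 to 31745969 in those labelled WT. The mean fragment length, recovered from the deposited lengths, was 275 to 317 bases in the former and 230 to 258 bases in the latter, with no overlap in either measure. Genotype therefore cannot be told apart from depth or fragment length by comparing like libraries, and the labels name no batch that differs between libraries. Nothing in the labels says that the libraries of a group came from separate animals, so the p-values measure the spread between these libraries, which may be technical. Of the targeted genes, Abcc12 had 82.1, 82.4 and 72.6 CPM (counts scaled to library size with TMM factors) in the libraries labelled DKO and 165, 158 and 158 CPM in those labelled WT (log2 fold change -1.02, SE 0.0739; edgeR adjusted p = 0.000307). Abcc5 had 16.8 ± 0.190 CPM against 11.4 ± 0.898 CPM (SD, n = 3 each), a log2 change of 0.56 with an edgeR adjusted p of 0.0225. RNA of Abcc5 was thus higher, not lower, with the DKO label. The design of the alleles is not given, so this level does not decide whether the label holds. The estimated length of Abcc5, weighted by abundance over 2 transcripts, was 5405 to 5605 bases with the DKO label. With the WT label it was 4831 to 5150 bases. The groups are called by their labels below.

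Sequences just before annotated transcription starts are shown first. Akap3, Akap4 and Fscb carry the same short element there, and a link between it and their levels was not tested. RefSeq windows (GRCm38.p6, the assembly also known as mm10) were found for 8 of the 10 genes, and the 250 bases before the listed start were read. The Akap3, Akap4 and Fscb windows lie outside the gene in both RefSeq and GENCODE M21. Those of Odf2 and Ropn1 lie before a start inside the gene, and those of Spa17, Odf3 and Ropn1l overlap the gene in at least 1 of the annotations, so these 5 do not cover all sequence before the gene. Each is written 5′ to 3′ on the strand of the gene, with TGATGTCA in capitals. The Akap3 window is chr6:126852848-126853097 on the plus strand, that of Akap4 is chrX:7067265-7067514 on the plus strand, and that of Fscb is chr12:64474899-64475148 on the minus strand. For Akap4 the first of 2 listed windows is shown, and for the other genes with several the first was searched.
Akap3: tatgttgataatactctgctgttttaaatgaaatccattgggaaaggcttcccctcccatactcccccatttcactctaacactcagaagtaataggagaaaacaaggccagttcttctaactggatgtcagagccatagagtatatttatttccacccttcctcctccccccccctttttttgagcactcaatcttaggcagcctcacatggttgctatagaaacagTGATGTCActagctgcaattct
Akap4: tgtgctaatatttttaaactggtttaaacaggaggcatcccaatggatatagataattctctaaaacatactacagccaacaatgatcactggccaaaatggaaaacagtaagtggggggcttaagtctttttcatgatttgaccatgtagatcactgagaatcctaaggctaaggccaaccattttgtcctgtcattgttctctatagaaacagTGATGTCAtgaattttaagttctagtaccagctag
Fscb: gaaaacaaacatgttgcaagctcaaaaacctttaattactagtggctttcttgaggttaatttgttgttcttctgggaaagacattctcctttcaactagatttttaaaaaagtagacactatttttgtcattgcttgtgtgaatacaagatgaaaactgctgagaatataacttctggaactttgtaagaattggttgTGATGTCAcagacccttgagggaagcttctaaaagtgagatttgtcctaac

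TGATGTCA differs by 1 base from the palindromic cyclic AMP response element TGACGTCA, the site by which CREM acts on spermatid genes. It lay at positions -22 to -15 in Akap3, -35 to -28 in Akap4 and -51 to -44 in Fscb, counted back from the last base before the listed start as -1. In the 5 other windows (Spa17, Odf2, Odf3, Ropn1 and Ropn1l) it was not present on either strand. Across all 27025 RefSeq genes with a window, 3.02% held TGATGTCA or its reverse complement TGACATCA in the same 250 bases. In Akap3 and Akap4 the element was part of a shared run of 20 bases, the longest among the 28 pairs of windows compared, where the next longest had 10.
Akap3 and Akap4: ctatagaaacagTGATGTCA
That run was found in 2 of the 27025 windows, those of Akap3 and Akap4. TGATGTCA was chosen after the letters were seen. None of the 8 windows held TGACGTCA (1.62% of all windows did) or TATAAA on either strand (13.0%). The shorter TGACG, which is part of TGACGTCA, occurred in the Odf2 window at -102 to -98 and -27 to -23 (17.9% of all windows held it on either strand). GTTGCC, part of the site bound by RFX factors, occurred in Odf3 at -65 to -60 and in Ropn1l at -20 to -15 (10.5% of all windows). These matches describe the letters and do not show binding.

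Akap3, Akap4, Fscb and Spa17 were higher in libraries labelled DKO, by 1.27-fold to 1.5-fold, and the other 6 members did not pass the test. No member was lower, also none at an unadjusted p under 0.05, with DESeq2 or with limma. So 4 of 10 were called higher at an adjusted p under 0.05 (edgeR quasi-likelihood test, Benjamini-Hochberg over all 17110 tested genes). Over all tested genes, 10.8% were called, 5.75% as higher and 5.1% as lower. An unadjusted p under 0.05 in edgeR was found for 5428 of the 17110 tested genes. The same 4 were the members whose CPM did not overlap between the groups, which held for 35.9% of all tested genes in either direction. The median log2 fold change of the 10 was 0.11, against -0.00420 over all tested genes. All 4 higher genes belong to the fibrous sheath or bind to it. So do Cabyr, Ropn1l and Ropn1, which were not called (log2 fold changes 0.16, 0.05 and -0.03). The 3 outer dense fiber genes had log2 fold changes between -0.11 and 0.05. In whole tissue, more cells of a type and more RNA per cell cannot be told apart.

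Akap3 encodes a sheath anchor that also binds ropporin; the gene lies at chr6:126853098-126874308 on the plus strand and has 6 exons. It had 1813, 1618 and 1392 CPM with the DKO label, against 1306, 999 and 1063 CPM with the WT label. The lowest library labelled DKO was above the highest labelled WT. The fold change was 1.43 (log2 0.52, SE 0.116; edgeR adjusted p = 0.0299). Akap4 is the X-linked gene for the most abundant sheath protein, made as a precursor that is cleaved when the sheath is assembled (chrX:7067519-7078609, plus strand). It had 2535, 2411 and 2309 CPM in libraries labelled DKO against 2065, 1722 and 1906 CPM, again without overlap. Its fold change was 1.27 (log2 0.35, SE 0.0836; edgeR adjusted p = 0.0341).

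Fscb encodes a protein of the sheath that binds CABYR, and lies in 1 exon at chr12:64471330-64474690 on the minus strand. In this fit it had the largest log2 fold change of the members, although Spa17 was above it with the length-trend offset (0.57 against 0.56) and with fragment length as a covariate (0.24 against -0.08). Its CPM was 493, 413 and 358 in libraries labelled DKO and 337, 225 and 279 in those labelled WT, with DKO replicate 3 only slightly above WT replicate 1. The fold change was 1.5 (log2 0.59, SE 0.143; edgeR adjusted p = 0.0348). Cabyr, the calcium-binding partner of FSCB, had 339, 322 and 291 CPM against 326, 248 and 277 CPM, and the groups overlapped. Its log2 fold change was 0.16 (95% interval -0.06 to 0.38; edgeR adjusted p = 0.288). The balance of this pair was read within each library from TPM, which is scaled for transcript length. There were 1.99, 2.20 and 2.26 Cabyr transcripts per Fscb transcript in libraries labelled DKO and 2.66, 2.94 and 2.69 in those labelled WT. The log2 ratio was lower by 0.37 without overlap (difference -0.37; two-sided exact permutation p = 0.1, the lowest value possible with 3 against 3; 0.267 after adjustment over the 4 ratios tested).

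Spa17, a small protein with a calmodulin-binding motif, changed while its relatives Ropn1 and Ropn1l did not pass the test. Spa17 (chr9:37603290-37613722, minus strand) had 817, 701 and 772 CPM with the DKO label, against 590, 515 and 586 CPM with the WT label, without overlap. Its fold change was 1.35 (log2 0.44, SE 0.0839), and it had the smallest adjusted p of the members (edgeR, 0.0252). In GENCODE M21, 391 of its 1061 exon bases overlap exons of Siae on the opposite strand, and strand handling is not given in the sources used here. Siae had 15.5 CPM with the DKO label, against 14.8 CPM with the WT label on average. Whether reads from Siae enter the counts of Spa17 was not tested.

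Ropn1l, which binds AKAP3, had 1008 to 1066 CPM with the DKO label, against 963 to 1062 CPM with the WT label (log2 fold change 0.05, 95% interval -0.10 to 0.21; edgeR adjusted p = 0.646). Ropn1, or ropporin, had 180 to 205 CPM against 183 to 209 CPM (log2 fold change -0.03, 95% interval -0.20 to 0.15; edgeR adjusted p = 0.855). Both intervals end below 0.25, where the interval of Spa17 begins, but the difference between these genes was not tested. In TPM the Ropn1l libraries did not overlap (2351 to 2496 against 2246 to 2341 TPM). Ropn1l transcripts outnumbered those of Ropn1 in TPM by 4.91 ± 0.255 to 1 in libraries labelled DKO and by 4.69 ± 0.202 to 1 in those labelled WT (SD, n = 3 each; exact permutation p = 0.2 on the log2 ratio). As a ratio chosen after the values were seen, Spa17 to Ropn1l in TPM was 1.28, 1.02 and 1.11 in libraries labelled DKO and 0.837, 0.790 and 0.875 in those labelled WT. Spa17 transcripts thus outnumbered those of Ropn1l in all 3 libraries labelled DKO and in none labelled WT.

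The outer dense fiber genes showed no called change. Odf1 encodes a cysteine-rich fiber protein related to small heat shock proteins, and the gene has 2 exons at chr15:38219203-38226735 on the plus strand. It had 1063, 1210 and 1271 CPM with the DKO label, against 1427, 1150 and 1252 CPM with the WT label. The libraries of both groups were interleaved, and the log2 fold change was -0.11 (95% interval -0.32 to 0.10; edgeR adjusted p = 0.454). Odf2, a coiled-coil protein that also has centriolar forms known as cenexin, lies at chr2:29889221-29931746 on the plus strand. Its CPM was 4866, 5073 and 4954 against 4876, 4594 and 4926, which gave 0.05 on the log2 scale (95% interval -0.11 to 0.21; edgeR adjusted p = 0.673). The groups overlapped. Odf3, also known as Shippo1, had 78.1 to 84.7 CPM against 75.0 to 92.8 CPM (log2 fold change -0.02, 95% interval -0.22 to 0.17; edgeR adjusted p = 0.875).

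**Figure D1:**
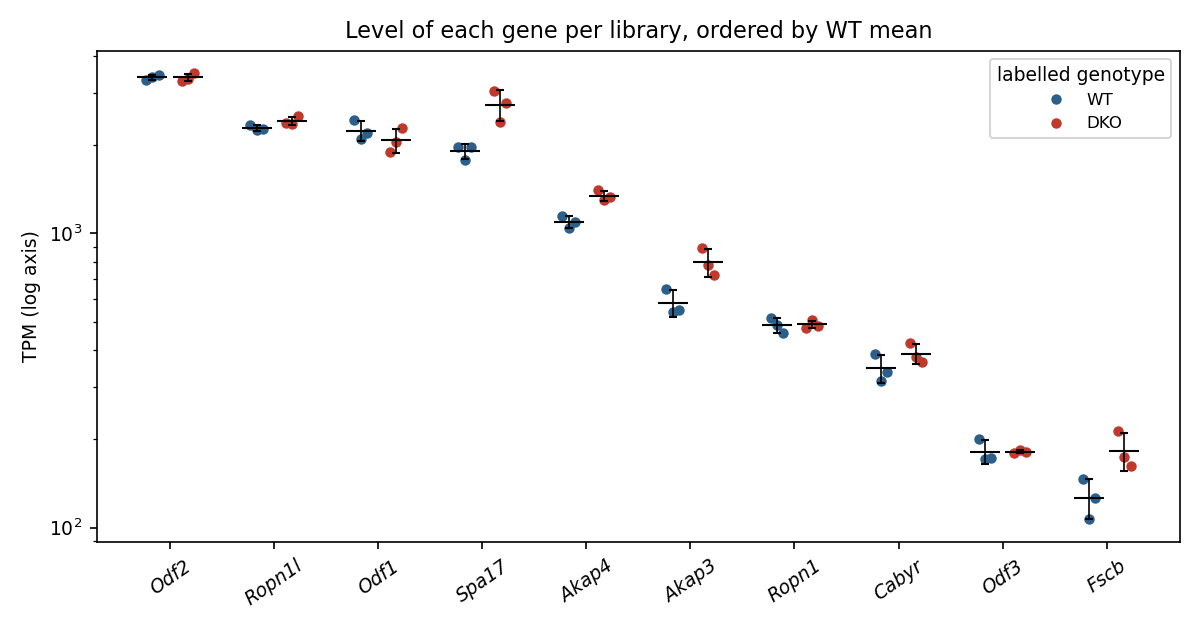
TPM of each of the 10 genes (log axis) in every library, with points for libraries, a black line for the group mean and bars for 1 SD (n = 3 per labelled genotype). Spa17, Akap4, Akap3 and Fscb sit higher in all 3 libraries labelled DKO, while Odf2, Ropn1 and Odf3 sit at nearly the same level in both groups.

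Per transcript, the members covered a wide range of levels. In libraries labelled WT, Odf2 was highest at 3385 ± 74.0 TPM, followed by Ropn1l at 2280 ± 53.2, Odf1 at 2231 ± 174, Spa17 at 1901 ± 111, Akap4 at 1094 ± 51.8, Akap3 at 580 ± 60.0, Ropn1 at 487 ± 28.3, Cabyr at 348 ± 38.9, Odf3 at 181 ± 16.5 and Fscb at 127 ± 19.8 TPM (SD, n = 3 each). Among neighbours in that order, Ropn1l and Odf1 overlapped between libraries, and the others did not. Odf2 ranked 12 to 14 among all genes of the files in every library. In libraries labelled DKO, Spa17 stood second at 2735 ± 330 TPM, overlapping with Ropn1l at 2408 ± 77.1, and Fscb at 183 ± 26.5 overlapped with Odf3 at 181 ± 1.85 (SD, n = 3 each). The 10 genes together took 1.34% to 1.43% of all TPM in libraries labelled DKO and 1.22% to 1.31% in those labelled WT.

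The other ratios within a library differed less. Akap3 to Akap4 was 0.594 ± 0.0501 in TPM in libraries labelled DKO and 0.530 ± 0.0341 in those labelled WT (SD, n = 3 each; exact permutation p = 0.2). Odf2 to Odf1 was 1.64 ± 0.107 and 1.52 ± 0.140 (SD, n = 3 each; exact permutation p = 0.4). A ratio across the structures, chosen after the values were seen, was Akap4 to Odf2. It was 0.423, 0.387 and 0.380 in libraries labelled DKO and 0.346, 0.307 and 0.317 in those labelled WT, so that the sheath gene was higher relative to the fiber gene in each library labelled DKO. The estimated mix of transcripts was examined for the 3 members with several in the files. For Odf2, with 5 transcripts, the abundance-weighted length was 2379 ± 1.79 bases in libraries labelled DKO and 2381 ± 1.69 bases in those labelled WT, and for Cabyr, also with 5, it was 1452 ± 10.9 and 1471 ± 12.8 bases (SD, n = 3 each; exact permutation p = 0.3 and 0.2). Akap4 stayed at 2855 bases in both groups (exact permutation p = 0.6).

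Akap3, Akap4 and Fscb have the longest transcripts of the members, at 3153, 2855 and 3566 bases. Their CPM followed the fragment length of the libraries in exact order, from DKO replicate 1 down to WT replicate 2. This order held within both groups as well as between them. The same order held for 5.07% of all tested genes, and the reverse order for 2.05%. Cabyr followed it within each group but not across them. Spa17 did so among libraries labelled WT and not among those labelled DKO, where replicate 3 (772 CPM) was above replicate 2 (701 CPM). Odf2 and Ropn1 followed it in neither group. With the mean fragment length as a covariate, no member was called and none had an unadjusted p under 0.05 (edgeR). That fit called 1 gene of 17110, and 545 had an unadjusted p under 0.05. Log2 fold changes in that fit were 0.02 (SE 0.136) for Akap3, 0.11 (SE 0.128) for Akap4, -0.08 (SE 0.136) for Fscb and 0.24 (SE 0.134) for Spa17. Since fragment lengths do not overlap between the groups, genotype and fragment length cannot be told apart. An offset from the effective lengths, which corrects counts for fragment length against transcript length, left all 4 called, at 0.50, 0.34, 0.57 and 0.57 for Akap3, Akap4, Fscb and Spa17 (edgeR adjusted p = 0.0341, 0.0376, 0.0377 and 0.0267). For transcripts as long as those of Akap3, Akap4 and Fscb, this offset can move the values only little. The mean effective length of Akap3 was 2860 bases with the DKO label and 2909 bases with the WT label. The offset therefore does not separate genotype from fragment length.

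**Figure D2:**
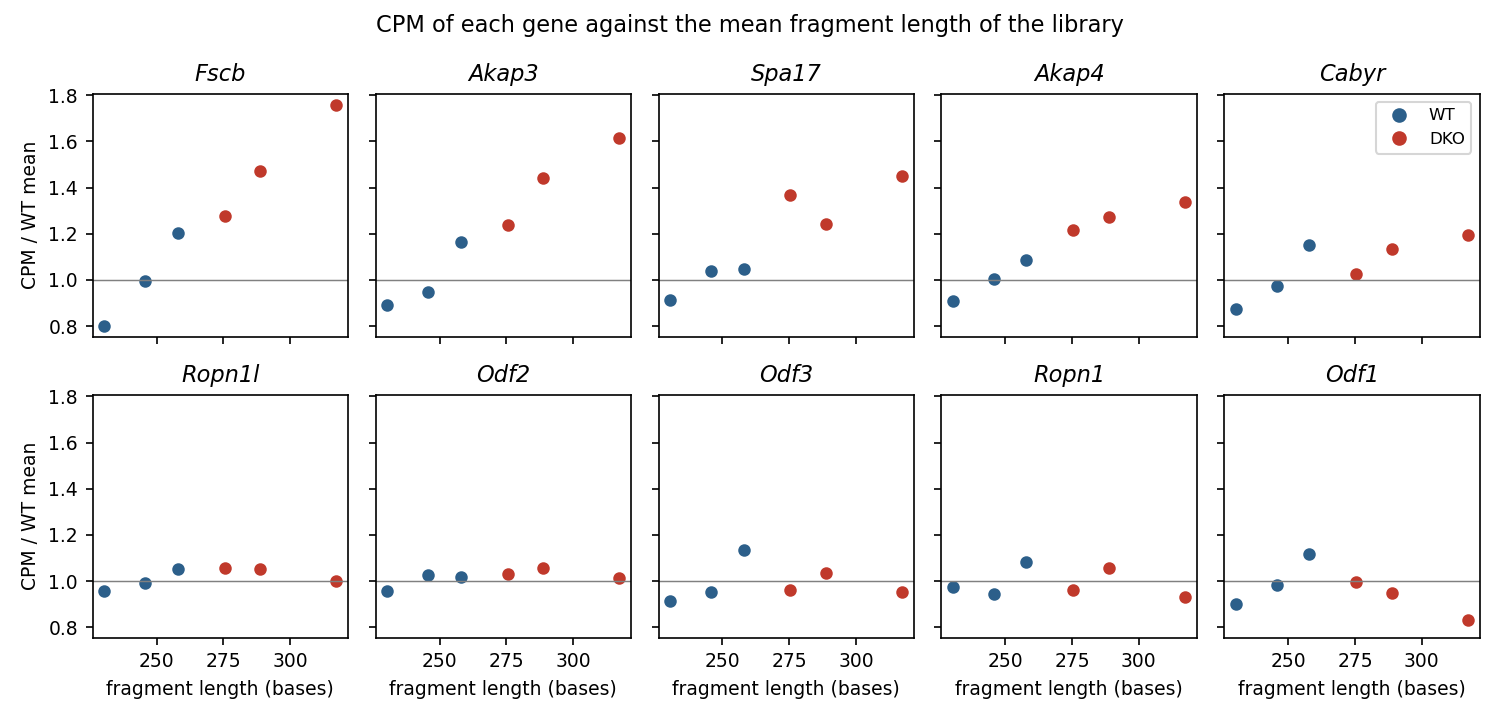
CPM of each gene divided by its mean in libraries labelled WT, plotted against the mean fragment length of the library in bases, with 1 point per library. Fscb, Akap3 and Akap4 climb steadily from the shortest to the longest fragments across both groups, while Odf2 and Ropn1l stay within a narrow band around 1.

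**Figure D3:**
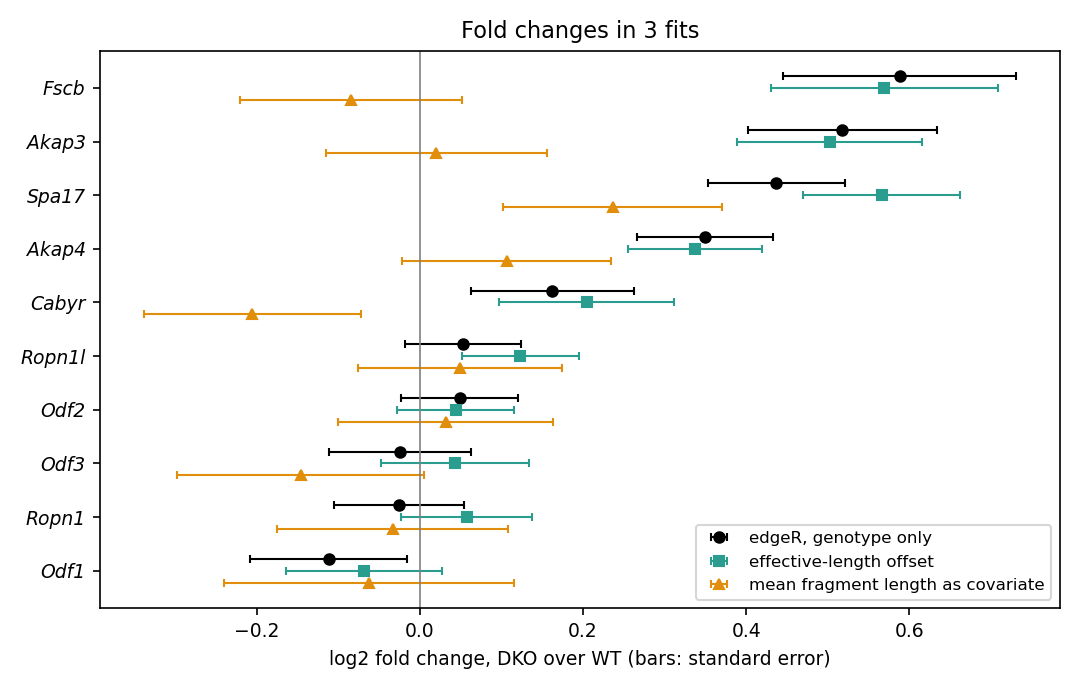
Log2 fold change of libraries labelled DKO over those labelled WT with its standard error in 3 edgeR fits: genotype only, with an effective-length offset, and with mean fragment length as a covariate. Fscb, Akap3, Spa17 and Akap4 keep values from 0.34 to 0.59 in the first 2 fits and lie between -0.08 and 0.24 with the covariate.

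The calls depended on single libraries. All 4 genes were called without DKO replicate 3 and without WT replicate 1, and only Spa17 without DKO replicate 2. Without DKO replicate 1, WT replicate 2 or WT replicate 3, edgeR called 0 members, and 4 had an unadjusted p under 0.05 in each of these fits. So had 3571 of 17097, 3793 of 17403 and 4326 of 17431 tested genes, in the same order of fits. Those fits called 11, 13 and 7 genes in all. The direction did not turn in any of the 6 fits for these 4 genes, with log2 fold changes from 0.41 to 0.62 for Akap3, 0.28 to 0.40 for Akap4, 0.44 to 0.73 for Fscb and 0.37 to 0.49 for Spa17.

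Members also differed in how they varied between libraries of the same group. After the group means were removed, Akap3, Akap4, Fscb and Cabyr moved together across the 6 libraries, with Pearson correlations of log2 CPM from 0.91 (Akap3 with Akap4) to 0.98 (Akap4 with Fscb). Odf1 and Ropn1l formed another close pair (0.98). Between these sets the values were lower, such as 0.13 for Akap3 with Odf1, and 1 of the 45 pairs was negative, Ropn1 with Spa17 at -0.32. These correlations describe 6 points that share depth and fragment length. With both group means removed, fewer than 6 of the values vary freely, so high correlations arise easily. Outside the members, the genes whose log2 CPM was most like the mean profile of the 10 were Hipk1, Spata21, Tex2, Ttll5 and Mroh2b (Pearson r of 0.9997, 0.9989, 0.9989, 0.9987 and 0.9986 over 6 libraries). These are the highest of 5576 genes compared, of which 305 exceeded 0.95.

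Other components of the 2 structures were described from 3 lists. Over all tested genes, edgeR called 10.8%, with 5.75% higher and 5.1% lower. Among 10 tested fibrous sheath proteins and enzymes bound to the sheath, 1 was called higher and 1 lower, with a median log2 fold change of 0.09. Slc25a31, the germ-cell ADP/ATP carrier, had 61.7, 53.2 and 59.0 CPM with the DKO label, against 46.3, 43.0 and 45.2 CPM with the WT label (log2 fold change 0.37, SE 0.0771; edgeR adjusted p = 0.0269). Gapdhs, the sperm glyceraldehyde-3-phosphate dehydrogenase that is tied to the sheath, had 1241, 1653 and 1105 CPM against 1857, 1694 and 1833 CPM (log2 fold change -0.43, SE 0.125; edgeR adjusted p = 0.04997). It was therefore lower while the anchors were higher, although its DKO replicate 2 lay close to the libraries labelled WT. Akap14, another sheath anchor, did not pass the test (log2 fold change 0.29, SE 0.0939; edgeR adjusted p = 0.0654).

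Of 10 genes for subunits of protein kinase A, its other anchors and ropporin partners, 2 were called higher and 1 lower (median log2 fold change 0.09). The shares over all tested genes were 5.75% higher and 5.1% lower. Prkar2a, the RII-alpha subunit by which the kinase docks on such anchors, had 318, 292 and 249 CPM with the DKO label, against 234, 205 and 234 CPM with the WT label (log2 fold change 0.35, SE 0.0954; edgeR adjusted p = 0.0417). Akap11, a further anchor, was higher by 0.30 on the log2 scale (SE 0.0809; edgeR adjusted p = 0.0402). Rhpn1, or rhophilin, a binding partner of ropporin, was lower, at -0.29 on the same scale (SE 0.0811; edgeR adjusted p = 0.0450). Prkaca, the catalytic subunit, did not pass (log2 fold change 0.08, SE 0.0682; edgeR adjusted p = 0.477). Of 11 tested genes among other ODF-named genes and fiber partners, edgeR called none (median -0.02). At an unadjusted p under 0.05, 2 were higher and 1 lower, where 5428 of all 17110 tested genes passed. DESeq2 called 2 higher and 1 lower, and limma called none. Calls in these lists depended on single libraries as well: without DKO replicate 1, WT replicate 2 or WT replicate 3, none of the 5 called genes passed. Slc25a31 was called in 3 of the 6 fits that left out a library, Prkar2a in 2, and Gapdhs, Rhpn1 and Akap11 in 1 each, with no change of direction. Gapdhs was called only without DKO replicate 2 (-0.62), and its values ranged from -0.62 to -0.31. In the list of other ODF-named genes, the nearest to the threshold were Odf2l, at 0.37 (edgeR adjusted p = 0.0507), and Odf3l1, at -0.30 (edgeR adjusted p = 0.0539).

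**Figure D4:**
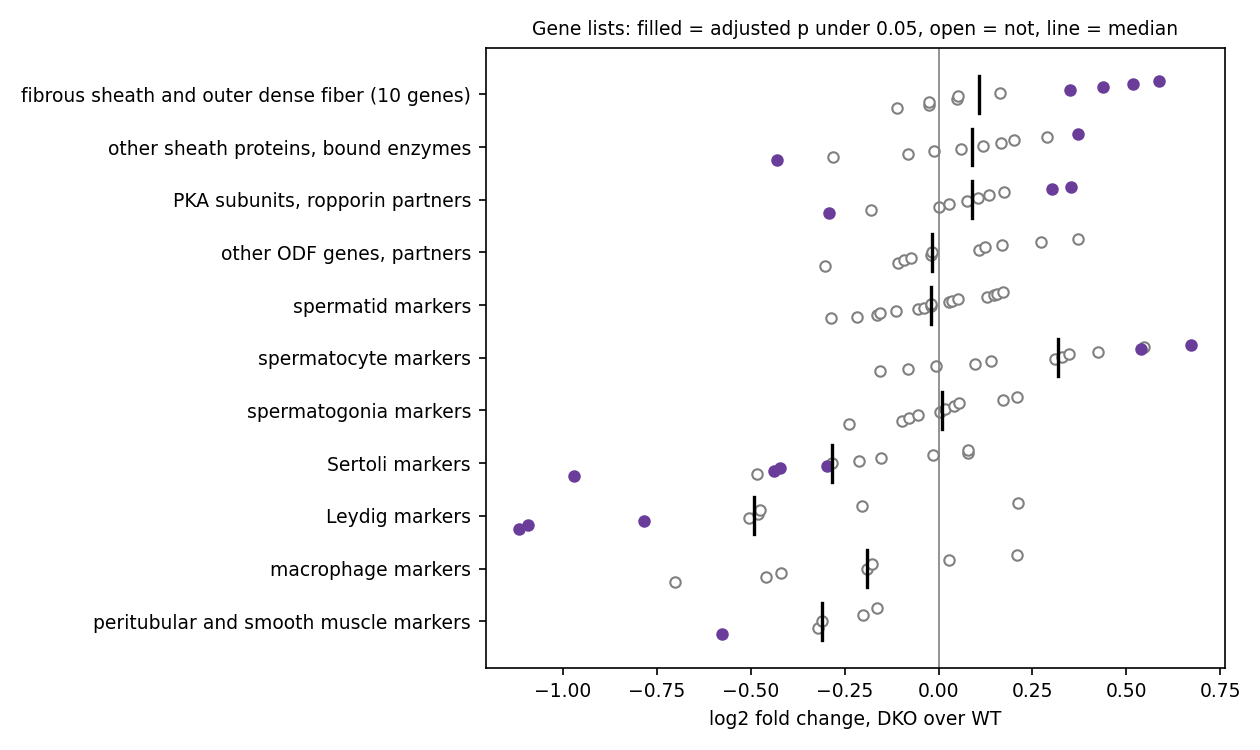
Log2 fold change of each tested gene by list, with filled points for genes at an edgeR adjusted p under 0.05, open points for the others and a line at the list median. The median of the 10 members is 0.11 and that of the 16 spermatid markers is -0.02. The 4 members picked by their calls lie to the right of these markers, none of which was called. The other 6 members lie within the range of these markers. Sertoli and Leydig markers extend furthest to the left.

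Markers of the cell types of the testis give the setting of these values. Calls among them stand beside the 5.75% called higher and 5.1% called lower over all tested genes (edgeR). None of the 16 spermatid markers was called by edgeR or limma, and 1 was lower with DESeq2 and at an unadjusted p under 0.05. In edgeR, 5428 of all 17110 tested genes had such an unadjusted p. The median log2 fold change of the spermatid markers was -0.02 and the highest 0.17, against a median of 0.11 for all 10 members. The 4 called members lay above 0.17, but these 4 were picked by their calls. Scaling the libraries on these markers instead of by TMM left the 4 members called, at 0.53, 0.36, 0.60 and 0.44 for Akap3, Akap4, Fscb and Spa17. Of 12 spermatocyte markers, 2 were called higher (median 0.32), and their summed level was 868 to 1075 TPM in libraries labelled DKO and 775 to 833 TPM in those labelled WT. Of 11 Sertoli markers 4 were called lower (median -0.28; summed 1453 to 1824 TPM against 1906 to 2437 TPM), and of 8 Leydig markers 3 (median -0.49; 864 to 1521 TPM against 1499 to 3146 TPM). Peritubular markers had 1 of 5 lower, and edgeR, DESeq2 and limma called none of 10 spermatogonia and 7 macrophage markers (at an unadjusted p under 0.05 in edgeR, 1 and 3). Epididymis markers summed to 5.10 to 7.44 TPM over the libraries, and Lcn5 and Lcn8 were at 0 in all of them. The part of these shifts in the values of the members was not tested.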

How the data were processed

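RNA was measured in whole testis, in 3 libraries labelled DKO and 3 labelled WT. STAR 2.7.0f, RSEM 1.2.31, DESeq2 1.12.3 and mm10 are named, without their roles, per the submitters' processing notes. Strand handling and annotation release are not given in the sources used here. Per the file headers, each deposited file holds an expected count (estimated fragments per gene), TPM (scaled for effective length to a fixed total), FPKM and lengths in bases for 24411 genes. FPKM as deposited by the authors was left unused. Of the deposited expected counts, 93.2% were whole (within 1e-06), and those of all 10 members were whole in every library. A member had 2414 to 334643 counts in a library, so counting error is small beside the spread between libraries.

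Expected counts were rounded, genes were filtered with filterByExpr of edgeR 4.0.16 (minimum count 10, minimum total 15), and libraries were scaled by TMM. The 2 labelled genotypes were compared by the quasi-likelihood test across all 17110 genes, with Benjamini-Hochberg adjustment. The SE of a log2 fold change is its size over the square root of F, and 95% intervals use it with the moderated degrees of freedom. The test was also run on counts with known answers, simulated from the means and dispersions of these libraries. That simulation held no effect of fragment length, so it does not bear on that difference between the groups. Ratios and lengths were compared by exact two-sided permutation over libraries. Fragment length was recovered as length minus effective length plus 1 (median over genes above 3000 bases). Alternatives were DESeq2 1.42.0 and its size factors, limma 3.58.1 with a mean-variance trend on log2(TPM + 1) and log2(TPM + 0.1), no count filter, scaling on spermatid markers, an effective-length offset, an offset for each library's trend on transcript length (mgcv 1.9.3), fragment length as a covariate, and leaving out each library. Positions and exon overlaps come from GENCODE M21 (GRCm38).

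The members and lists were chosen with earlier results of these data known. Named genes were the members, both targeted genes, every called gene of the 3 pathway lists, and the 5 genes most correlated with the mean profile of the members, among genes averaging 5 or more in log2 CPM. Akap14, Prkaca, Odf2l, Odf3l1 and Siae were named after their values were seen.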

Additional observations from a re-analysis of the deposited data

How the results depend on the processing

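No paired analysis was possible because the labels give no replicate numbers: those used here follow the order of listing, only name a library and tie no library of one group to one of the other. The count of 4 members higher and 0 lower held with DESeq2 size factors, spermatid-marker scaling, no count filter, both length offsets, DESeq2 and limma on log2(TPM + 0.1). On log2(TPM + 1) it was 3, with Fscb at an adjusted p of 0.0504. With the fragment length as a covariate it was 0, and it ranged from 0 to 4 when single replicates were left out. Over all genes, DESeq2 called 2943, limma 735 (279 higher, 456 lower) and 947 (370 higher, 577 lower), the covariate fit 1, and the fits without a replicate 7 to 3029, against 1856 (984 higher, 872 lower). The 3 pathway lists, with 3 genes higher and 2 lower, had 6 and 4 with DESeq2, 0 and 0 on log2(TPM + 1), 0 and 2 on log2(TPM + 0.1), 3 and 1 with either length offset, and 0 and 0 with the covariate. They had 0 and 0 without DKO replicate 1, WT replicate 2 or WT replicate 3, 1 and 2 without DKO replicate 2, 6 and 2 without DKO replicate 3, and 3 and 0 without WT replicate 1.

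Signs turned mainly for members near 0, and the cause was not tested. Odf2 was -0.0010 on both TPM scales. Odf3 was 0.0433 and 0.0567 with the effective-length and length-trend offsets, 0.0037 on both TPM scales, and -0.0915 to 0.0579 when a replicate was left out. Ropn1 was 0.0575 and 0.0668 with these offsets, 0.0133 on both TPM scales, and -0.0898 to 0.0173 when a replicate was left out. With the covariate, Fscb was -0.0843 and Cabyr -0.20.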
